A study of Rattus norvegicus with 6 samples.

Results

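The genes described here encode the platelet-derived growth factors (PDGF), the vascular endothelial growth factors (VEGF) and their receptors. They were taken by symbol: Pdgfa, Pdgfb, Pdgfc, Pdgfd, Vegfa and Vegfc for the ligands, and Pdgfra, Pdgfrb, Kdr and Flt1 for the receptors. All 10 symbols were found among the 20675 rat genes of the deposited table. RNA sequencing had been done on primary cells from the disc of the rat temporomandibular joint (TMJ), the fibrous pad between the bones of the jaw joint. One group of 3 samples was given GSK101, an agonist of the calcium-permeable channel TRPV4, and the other group of 3 was given the solvent DMSO, each for 24 h. The solvent was given at a matched concentration. The labels name no genetic change, strain, sex, age or dose. They do not say whether replicates were separate animals or cultures, so each p-value refers to variation among these 6 samples, possibly technical.

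PDGF chains act as dimers on a pair of receptor tyrosine kinases. The A and C chains bind PDGFRA, the B chain binds both receptors, and the D chain binds mainly PDGFRB. PDGF drives growth and movement of mesenchymal cells such as fibroblasts and pericytes. VEGF-A acts on endothelial cells through KDR, the main signalling receptor, and is also bound tightly by FLT1, which limits its access to KDR. VEGF-C is best known for the growth of lymphatic vessels through FLT4. The adult TMJ disc has few vessels in its central part, so its VEGF transcripts are of interest in joint disease.

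The libraries held 43061102 to 45705238 counted reads, and 11352 to 11546 genes reached an RPKM of 1 (reads scaled to library size and gene length). Fibrous matrix genes were abundant, with Col1a1 at 1903 ± 135 and Col3a1 at 3521 ± 227 RPKM (SD, n = 3) in the DMSO samples, and of the cartilage genes Acan was at 33.6 ± 3.88, Sox9 at 2.80 ± 0.158 and Comp at 0.341 ± 0.134. Of 12801 genes tested with limma on log2(RPKM + 0.5), 31.9% were called at a Benjamini-Hochberg adjusted p under 0.05, 20.1% higher and 11.9% lower with GSK101. The higher share of these calls was 62.9% as deposited, 72.5% after rescaling to TPM, 48.1% with quantile normalization, 52.5% with median-ratio scaling and 46.8% once a trend on gene length was removed. Trpv4 itself was scarce, with 0.254 to 0.340 RPKM in the DMSO samples and 0.280 to 0.316 with GSK101 (exact two-sided permutation p = 1.0).

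Promoter sequences are shown for the receptors that rose (Pdgfra, Kdr) and the ligands that fell (Pdgfa, Vegfc), as in RefSeq on the GRCr8 build. Each runs 5′ to 3′ on the gene's own strand and ends just before the outermost start of the RefSeq gene. Capitals mark the GC box, GGGCGG on either strand, the letters bound by SP family factors.
Pdgfra, chr14:33408605-33408766, minus strand: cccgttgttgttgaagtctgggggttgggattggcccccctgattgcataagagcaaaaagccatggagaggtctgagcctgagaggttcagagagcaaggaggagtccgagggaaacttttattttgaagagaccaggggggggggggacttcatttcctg
Kdr, chr14:32571813-32572030, plus strand: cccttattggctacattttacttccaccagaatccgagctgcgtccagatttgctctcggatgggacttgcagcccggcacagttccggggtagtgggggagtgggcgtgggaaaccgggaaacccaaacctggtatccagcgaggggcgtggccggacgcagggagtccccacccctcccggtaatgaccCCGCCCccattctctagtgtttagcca
Pdgfa, chr12:20759116-20759365, plus strand: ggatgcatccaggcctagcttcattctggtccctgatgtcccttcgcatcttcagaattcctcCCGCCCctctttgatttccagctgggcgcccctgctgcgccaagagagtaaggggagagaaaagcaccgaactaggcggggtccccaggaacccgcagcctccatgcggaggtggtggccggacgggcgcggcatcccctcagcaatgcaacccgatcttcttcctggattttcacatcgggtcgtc
Vegfc, chr16:44560888-44561137, minus strand: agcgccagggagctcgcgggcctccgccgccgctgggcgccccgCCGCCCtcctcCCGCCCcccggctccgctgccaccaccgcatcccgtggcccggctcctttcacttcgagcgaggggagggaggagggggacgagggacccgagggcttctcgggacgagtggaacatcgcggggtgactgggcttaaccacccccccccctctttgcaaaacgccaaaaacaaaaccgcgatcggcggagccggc

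Motifs were searched on both strands in the 250 bases before the listed start of 9 members with an entry in the RefSeq table. The GC box was present in 7 of the 9, against 32.4% of 27457 promoters of the same length. Vegfa and Flt1 had 3 each and Vegfc had 2, while Pdgfra and Pdgfc had none. The letters TGANTCA, bound by AP-1 dimers such as those with c-Fos, were found only in the window of Pdgfra among these members, and in 6.36% of all promoters. This match began 35 bases before the listed Pdgfra start, within the 88 bases that a longer RefSeq transcript covers, and is shown with its flanks, the match in capitals.
Pdgfra: actataacatTGAATCAattacaaaat
The hypoxia response core ACGTG was present in the window of Pdgfd alone (16.9% of all promoters), and GGAATG, the letters bound by TEAD factors, in no member (11.8%). The windows of Flt1 and Pdgfc lie wholly inside longer RefSeq transcripts of those genes. So do 173 bases of the Pdgfd window, which hold its GC box and its hypoxia core, and 32 bases of the Kdr window, which do not hold its GC box. None of these motifs overlapped another, and a match describes letters, not a bound site. Among these windows only that of Pdgfra, with 47.2% G and C, was below the median of 52% over all promoters. The others ran from 56% for Pdgfc to 73.2% for Flt1, with Vegfc at 72.4%. The shares of all promoters with a motif were not matched for G and C content.

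With GSK101, PDGF transcripts moved in both directions. Among the VEGF members only Kdr, a scarce receptor transcript (DMSO mean 0.551 RPKM), rose and only Vegfc fell. Among the 8 members that entered the test, Pdgfra, Kdr and Pdgfc rose and Pdgfa, Pdgfrb and Vegfc fell, while Vegfa and Flt1 did not pass. The remaining 2, Pdgfb and Pdgfd, were below the filter of 0.5 RPKM in at least 3 libraries. Of the 8 tested, 3 were higher and 3 lower, beside 20.1% and 11.9% of all tested genes. In 7 of the 8 the groups stood apart without overlap, against 47.3% of all tested genes. The median log2 fold change of the 8 was -0.03 and that of all tested genes 0.03; the median absolute values were 0.26 and 0.16. All 3 rises were under 2-fold by the ratio of the means. In bulk samples such as these, fewer cells of a type and less RNA per cell cannot be told apart.

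**Figure D1:**
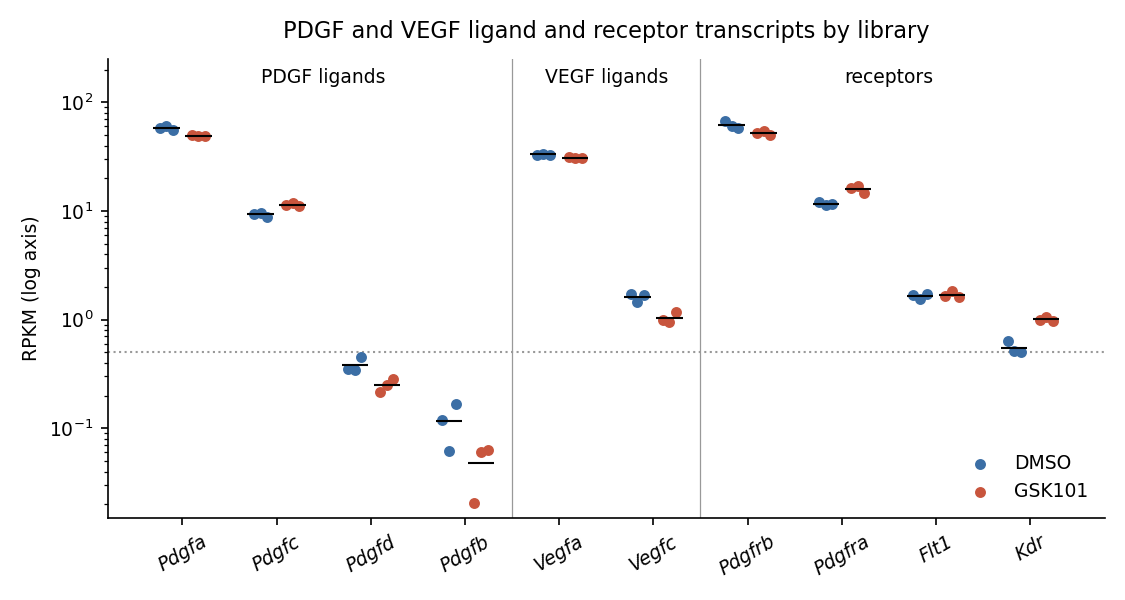
RPKM of each member in every library, on a log axis; blue points are DMSO and red points GSK101 samples, black lines the means of 3, and the dotted line the filter of 0.5 RPKM. Pdgfa, Pdgfrb and Vegfa lie highest, and Pdgfd and Pdgfb lie under the line in all 6 libraries.

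Pdgfa, the A chain gene, was the most abundant ligand transcript. It had 58.1, 60.2 and 55.3 RPKM in the DMSO samples and 49.7, 49.2 and 49.2 with GSK101. Every GSK101 sample was below every DMSO sample. The mean fell from 57.9 ± 2.46 to 49.4 ± 0.283 (SD, n = 3). Its log2 fold change was -0.23 (SE 0.04, limma adjusted p = 0.00642). The gene lies on chromosome 12 of Rnor_6.0 from 17734133 to 17755285 on the plus strand, and each library held 4004 to 5023 of its reads.

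Pdgfc, whose product is secreted in a latent form and bound by PDGFRA after cleavage, moved the other way. It had 9.44, 9.54 and 8.89 RPKM in the DMSO samples and 11.2, 11.8 and 11.03 with GSK101, with no overlap. The mean rose 1.22-fold, from 9.29 ± 0.352 to 11.4 ± 0.386 (SD, n = 3; log2 fold change 0.28, SE 0.05, limma adjusted p = 0.00666). It lies on chromosome 2 from 179952227 to 180128283. The C chain made up 13.6% to 13.9% of the summed RPKM of the PDGF ligand genes in the DMSO samples and 18.2% to 19.2% with GSK101, and Pdgfa 85.3% to 85.8% and 80.3% to 81.2%. The sum itself was 67.6 ± 2.69 and 61.0 ± 0.403 RPKM.

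The remaining PDGF ligands were scarce. Pdgfd, whose product is also activated by cleavage, had 0.353, 0.342 and 0.450 RPKM in the DMSO samples and 0.217, 0.249 and 0.287 with GSK101, on 56 to 74 and 36 to 46 reads. The groups did not overlap, and the exact two-sided permutation p of 0.1 is the smallest that 3 against 3 allows. Pdgfb, which encodes the B chain, had 0.120, 0.0624 and 0.166 RPKM in the DMSO samples and 0.0206, 0.0606 and 0.0638 with GSK101. These values rest on 6 to 16 and 2 to 6 reads per library, the groups overlapped, and no difference was detectable at this depth (exact two-sided permutation p = 0.2). With no filter on low values, neither gene passed the limma test (adjusted p = 0.0969 for Pdgfd and adjusted p = 0.194 for Pdgfb). Pdgfd is on chromosome 8, between 4440876 and 4669014, and Pdgfb on chromosome 7, between 121214628 and 121232741.

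The PDGF receptors moved apart. Pdgfra, the receptor gene for A and C chains, had 12.2, 11.3 and 11.6 RPKM in the DMSO samples and 16.4, 17.02 and 14.6 with GSK101. All GSK101 samples were above all DMSO samples. The mean rose 1.37-fold, from 11.7 ± 0.456 to 16.0 ± 1.24 (SD, n = 3), with a log2 fold change of 0.43 (SE 0.07, limma adjusted p = 0.0025). The change was 0.26 on the log2 scale with the gene length trend removed (adjusted p = 0.0131). Pdgfra is on chromosome 14, between 35527927 and 35581031 on the minus strand, and 26 of its 6514 exon bases are shared with an unnamed gene on the same strand.

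Pdgfrb, the receptor gene for B and D chains, was the most abundant receptor transcript. It had 66.7, 61.1 and 57.8 RPKM in the DMSO samples and 52.1, 54.6 and 50.02 with GSK101. The groups did not overlap, though the lowest DMSO sample and the highest GSK101 sample lay close together. The mean fell from 61.9 ± 4.51 to 52.2 ± 2.28 (SD, n = 3; log2 fold change -0.24, SE 0.06, limma adjusted p = 0.0197). The call was lost after rescaling to TPM (adjusted p = 0.0652) and without DMSO replicate 2, GSK101 replicate 1 or GSK101 replicate 3 (adjusted p = 0.0502, 0.061 and 0.0632), and the adjusted p ran from 0.00215 to 0.0652 over all alternatives. With the gene length trend removed the log2 fold change was -0.39.

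**Figure D2:**
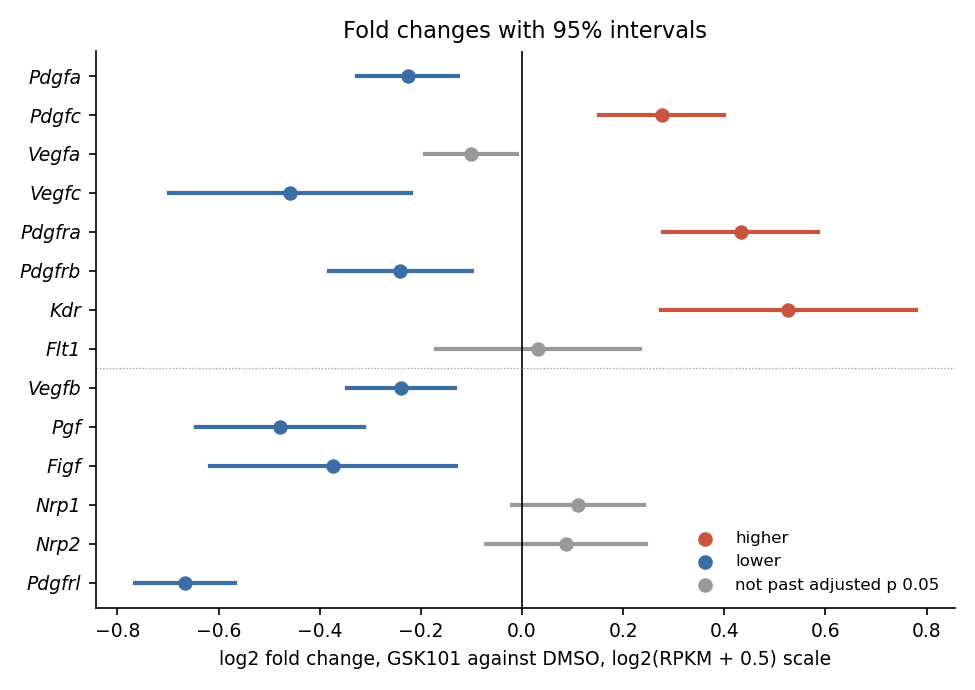
Log2 fold changes of GSK101 against DMSO on the log2(RPKM + 0.5) scale, with 95% intervals from limma, for the 8 tested members (above the dotted line) and the tested related genes; red is higher, blue lower and grey not past the threshold. Pdgfra, Kdr and Pdgfc lie to the right of 0 and the ligand genes Pdgfa, Vegfc, Vegfb, Pgf and Figf to the left.

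The balance between receptors was also read within each library, where scaling between libraries has no part. Pdgfra stood at 0.183, 0.186 and 0.2003 of Pdgfrb in the DMSO samples and at 0.314, 0.312 and 0.292 with GSK101. The ratio was 1.61-fold higher with GSK101. The groups had to stand apart, since every GSK101 sample had more Pdgfra and less Pdgfrb than every DMSO sample. Among the ligands, Pdgfc stood at 0.162, 0.158 and 0.161 of Pdgfa and at 0.226, 0.239 and 0.224 with GSK101, 1.43-fold higher. In all, 4 such ratios were tested, and each gave an exact two-sided permutation p of 0.1 (also 0.1 adjusted over the 4), the smallest possible with 3 against 3. For Pdgfra to Pdgfrb and Pdgfc to Pdgfa the separation and this p were fixed by the values of the single genes.

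Vegfa, the main VEGF ligand gene, had 33.0, 33.4 and 33.1 RPKM in the DMSO samples and 31.7, 30.5 and 30.5 with GSK101. The groups did not overlap, but the difference was small. The log2 fold change was -0.10, with a 95% interval from -0.19 to -0.01 and limma adjusted p = 0.0906. It passed with median-ratio scaling (adjusted p = 0.0267), with quantile normalization (adjusted p = 0.0268) and with the gene length trend removed, where the change was -0.20 (adjusted p = 0.00762), and its adjusted p ran from 0.00762 to 0.306 over all alternatives. Vegfa lies on chromosome 9 from 17340341 to 17355681.

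Vegfc fell further, from a lower level. It had 1.71, 1.45 and 1.68 RPKM in the DMSO samples and 0.991, 0.943 and 1.18 with GSK101. Each GSK101 sample was below each DMSO sample, on 91 to 108 reads against 136 to 166. The mean went from 1.61 ± 0.139 to 1.04 ± 0.124 (SD, n = 3), which is 1.55-fold lower. The log2 fold change was -0.46 (SE 0.10, limma adjusted p = 0.0124). The gene is on chromosome 16, between 40440207 and 40555576 on the minus strand. Vegfa stood at 19.4, 23.0 and 19.7 times Vegfc in the DMSO samples and at 32.0, 32.3 and 25.9 times with GSK101.

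Kdr, the main VEGF receptor gene of endothelial cells, had 0.642, 0.510 and 0.5004 RPKM in the DMSO samples and 0.993, 1.07 and 0.9753 with GSK101. The groups lay well apart, on 140 to 186 and 266 to 306 reads. The mean rose 1.84-fold, from 0.551 ± 0.0795 to 1.01 ± 0.0485 (SD, n = 3). On the log2(RPKM + 0.5) scale, which understates changes at such levels, this was 0.53 (SE 0.11, limma adjusted p = 0.00875), and limma-voom on the recovered reads gave 0.88. With the gene length trend removed the log2 fold change was 0.36 (limma adjusted p = 0.0375). Kdr is on chromosome 14, between 34727623 and 34787183 on the plus strand.

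Flt1, which encodes the receptor that holds VEGF-A away from KDR, had 1.68, 1.55 and 1.73 RPKM in the DMSO samples and 1.64, 1.84 and 1.62 with GSK101. The groups overlapped. The log2 fold change was 0.03 with a 95% interval from -0.17 to 0.23 (limma adjusted p = 0.812). Flt1 stood at 2.61, 3.03 and 3.45 times Kdr in the DMSO samples and at 1.65, 1.73 and 1.66 times with GSK101, so this ratio was 1.79-fold lower with GSK101.

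**Figure D3:**
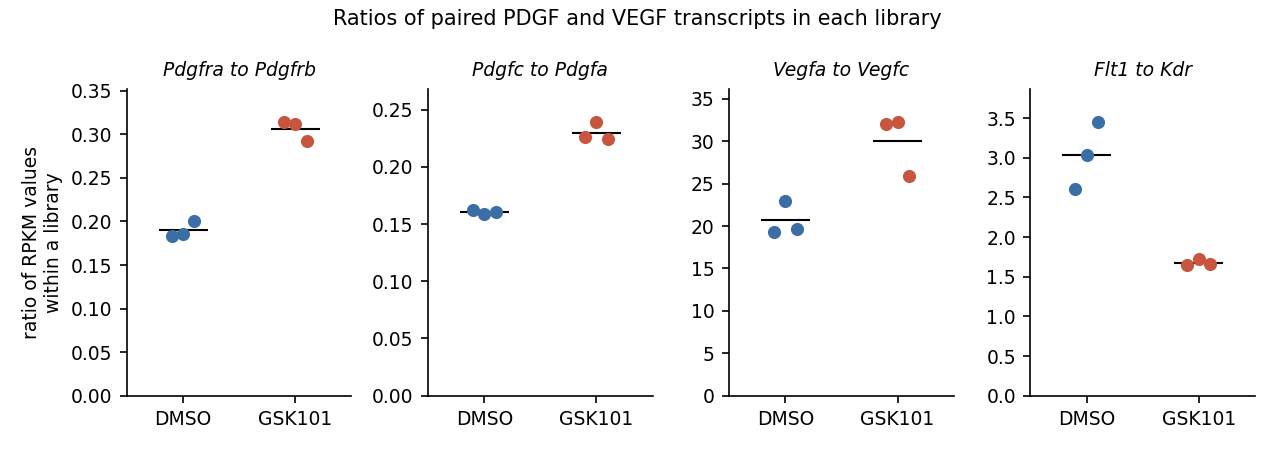
Ratios of RPKM values within each library for the 4 pairs of members, with axes that start at 0; points are libraries (blue DMSO, red GSK101) and black lines the means of 3. The ratios of Pdgfra to Pdgfrb, Pdgfc to Pdgfa and Vegfa to Vegfc are higher in each GSK101 library, and that of Flt1 to Kdr is lower.

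Within each group the order of levels was fixed. Among ligands it ran Pdgfa, Vegfa, Pdgfc, Vegfc, Pdgfd, Pdgfb, and among receptors Pdgfrb, Pdgfra, Flt1, Kdr, by RPKM. The order was the same in both groups, and no neighbours in it overlapped within a group. RPKM is per length of exon, so these levels can be set beside each other. Flt1 and Kdr were at 1.65 ± 0.0935 and 0.551 ± 0.0795 RPKM in the DMSO samples and 1.70 ± 0.125 and 1.01 ± 0.0485 with GSK101 (SD, n = 3).

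Kdr and Pdgfra lie on chromosome 14 with Kit, another receptor tyrosine kinase gene, as the nearest listed gene between them. Kit was at 0.409 to 0.503 RPKM in the DMSO samples and 0.213 to 0.274 with GSK101, under the filter, so its values lay lower with GSK101 while those of both flanking genes lay higher. Pdgfrb lies on chromosome 18 from 56364620 to 56406381, and Csf1r, the macrophage growth factor receptor gene, starts 8.1 kb beyond it. Csf1r was at 0.269 to 0.348 RPKM in the DMSO samples and 0.272 to 0.350 with GSK101, with overlapping groups. Flt1 shares chromosome 12 with Pdgfa and lies between 9034308 and 9205905.

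Other ligands of the VEGF family were lower with GSK101 as well. The wider list of 7 family genes also holds receptors and Pdgfrl. Of its 6 tested genes 4 fell (Pgf, Vegfb, Figf and Pdgfrl) and none rose, beside 11.9% lower and 20.1% higher of all tested genes. The 4 falls became 3 with the replicate block and without DMSO replicate 2 or 3 or GSK101 replicate 1 or 3. Pgf, which encodes placental growth factor, a FLT1 ligand, had 28.3, 24.7 and 28.2 RPKM in the DMSO samples and 17.8, 20.1 and 19.9 with GSK101 (log2 fold change -0.48, limma adjusted p = 0.00231). Vegfb, another FLT1 ligand gene, had 12.1, 12.3 and 12.3 RPKM in the DMSO samples and 10.1, 10.5 and 10.3 with GSK101 (log2 fold change -0.24, adjusted p = 0.00639). Both FLT1 ligands were therefore lower in each GSK101 sample. Figf, the VEGF-D gene, went from 1.22 ± 0.0912 to 0.828 ± 0.0986 RPKM (SD, n = 3; adjusted p = 0.0292). The summed RPKM of the VEGF ligand genes was 73.2 to 76.5 in the DMSO samples and 61.4 to 62.9 with GSK101. Vegfa made up 43.2% to 45.7% of this sum in the DMSO samples and 48.4% to 51.6% with GSK101.

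The VEGF co-receptor genes did not pass the test. Nrp2, a neuropilin that also binds semaphorins, had 38.5 to 43.9 RPKM in the DMSO samples and 41.2 to 46.7 with GSK101, with a 95% interval of the log2 fold change from -0.07 to 0.25. Nrp1 had 11.7 to 12.9 and 12.9 to 13.98, with an interval from -0.02 to 0.24. Both were well above Kdr and Flt1 in RPKM. Flt4, the VEGF-C receptor gene, had 0.166 to 0.326 and 0.274 to 0.405 RPKM with overlapping groups (exact two-sided permutation p = 0.2). Pdgfrl, which encodes a secreted protein similar to the outer part of a PDGF receptor, had 24.3, 25.2 and 25.6 RPKM in the DMSO samples and 15.6, 15.7 and 15.4 with GSK101. Its log2 fold change was -0.67 (SE 0.04, limma adjusted p = 0.000102). Of its exon bases, 225 of its exon bases are shared with an unnamed gene on the opposite strand, and use of strand in the counting is unknown.

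Among genes whose products cut or hold these ligands, 3 of 13 tested rose and 5 fell (median log2 fold change -0.07). Of all tested genes, 20.1% were higher and 11.9% lower. With the gene length trend removed, 2 of this list rose and 7 fell (median log2 fold change -0.21). In that setting 1877 of all 12801 tested genes were higher and 2137 lower. Plat and Plau encode the proteases known to activate PDGF-C and PDGF-D, and Lrp1 a receptor that associates with PDGFRB. They were the 3 that rose in the main fit, and they are named here after their values were seen. Plat went from 29.98 ± 1.50 to 36.9 ± 2.13 RPKM, Plau from 3.56 ± 0.216 to 5.21 ± 0.672 and Lrp1 from 22.6 ± 2.11 to 33.1 ± 4.78 (SD, n = 3; limma adjusted p = 0.00722, 0.00765 and 0.00875). Pcsk5, a proprotein convertase that can process VEGF-C, fell 2.17-fold, from 4.02 ± 0.252 to 1.85 ± 0.223 (adjusted p = 0.000405). Sparc, a matrix protein that binds PDGF and VEGF, Ctgf and the sulfatase gene Sulf2 fell by 0.29, 0.52 and 0.51 on the log2 scale.

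**Figure D4:**
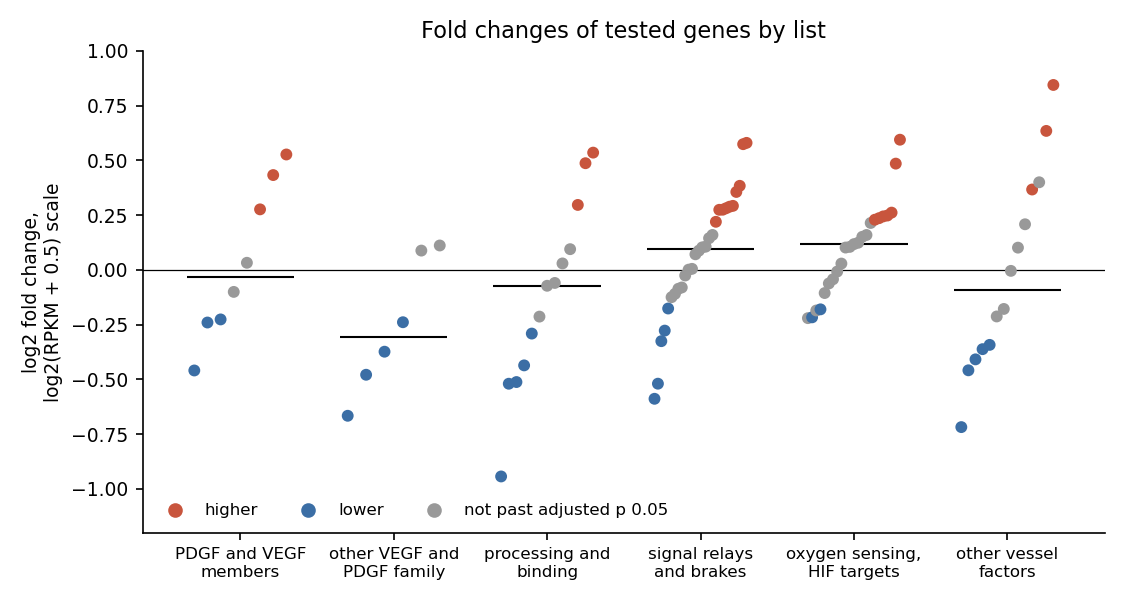
Log2 fold changes on the log2(RPKM + 0.5) scale of the tested genes in each list, sorted within a list; red is higher, blue lower, grey not past the threshold, and black lines are medians. The members and the 5 pathway lists are plotted, without the cell type markers; the other family genes have 4 blue points and no red one, and each of the other plotted sets has both colours.

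Of 28 tested relays and brakes below the receptors 10 rose and 5 fell (median log2 fold change 0.10). The shares over all tested genes were 20.1% higher and 11.9% lower. Rasa1, a brake on RAS that docks on PDGFRB, rose 1.52-fold from 13.5 ± 0.364 to 20.5 ± 1.56 RPKM (SD, n = 3; limma adjusted p = 0.000616). Ptpn1, a phosphatase that acts on PDGF receptors, rose 1.28-fold (adjusted p = 0.00261). Slc9a3r2 and Slc9a3r1, which encode NHERF scaffold proteins that bind PDGF receptors, fell by 0.59 and 0.52 on the log2 scale (adjusted p = 0.000367 and 0.000993). With the gene length trend removed, 6 of this list rose and 6 fell.

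Vegfa is a known target of the hypoxia-inducible factor HIF, so genes of oxygen sensing and other HIF targets were counted beside it. Of 23 tested 7 rose and 2 fell (median log2 fold change 0.12), beside 20.1% higher and 11.9% lower of all tested genes. Hif1a, the oxygen-regulated subunit gene, rose 1.41-fold from 33.8 ± 1.36 to 47.5 ± 4.02 RPKM (SD, n = 3; limma adjusted p = 0.00168), and Arnt, its partner, rose 1.18-fold (adjusted p = 0.012). Ldha, a glycolytic HIF target, rose 1.51-fold and P4ha1, a collagen prolyl hydroxylase gene, fell by 0.18 on the log2 scale. The 7 rises became 4 with no filter, quantile normalization, median-ratio scaling or the length trend removed, and 4 without DMSO replicate 3 or GSK101 replicate 2, and 3 without GSK101 replicate 1. The 2 falls became 1 with no filter, TPM or no mean-variance trend, and without DMSO replicate 1 or 2 or GSK101 replicate 1 or 3.

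Other secreted factors that act on vessels were mixed, with 3 of 14 tested higher and 5 lower. Among all tested genes these shares were 20.1% and 11.9%. Angpt1, an agonist of the endothelial receptor TEK, had 1.38, 1.89 and 2.04 RPKM in the DMSO samples and 4.38, 3.36 and 2.98 with GSK101 (2.02-fold, limma adjusted p = 0.0054). Angpt2, which can oppose it, had 0.824, 0.568 and 0.853 RPKM in the DMSO samples and 0.202, 0.181 and 0.399 with GSK101 (2.87-fold lower). Angpt2 passed the filter through its DMSO samples alone, so it had to be lower with GSK101 and its test is not given, though it is 1 of the 5. The filter also forced the Angpt2 groups apart. The Angpt1 groups did not overlap, and both genes were chosen after their values were seen. Angpt4 rose 1.62-fold, and Serpinf1, which encodes an inhibitor of vessel growth, Efnb2 and Fgf1 fell by 0.41, 0.36 and 0.46 on the log2 scale.

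Markers of other cell types were examined because Kdr and Flt1 mark endothelium and Pdgfrb pericytes. Of 12 endothelial markers in the table, 9 were under 0.5 RPKM in all 6 libraries, among them the defining genes Cdh5 (0.0332 and 0.00769 RPKM in the DMSO and GSK101 means), Tie1 (0.0522 and 0.0529) and Vwf (0.0287 and 0.0355). Their summed RPKM, carried by Eng, Egfl7 and Erg, was 31.6 to 33.9 in the DMSO samples and 24.9 to 26.8 with GSK101. Of these 3, the only ones tested, Eng and Erg fell, beside 11.9% lower of all tested genes. Kdr rose while the summed RPKM of these markers was lower, and the part of endothelial cells in the result for Kdr was not tested. Of 10 pericyte markers 4 were under 0.5 RPKM throughout, including Rgs5 and Kcnj8. Their sum was 41.8 to 46.3 in the DMSO samples and 36.9 to 38.2 with GSK101, with Mcam alone at 26.1 and 18.01 RPKM in the means. Of 6 tested, beside 11.9% lower and 20.1% higher of all tested genes, Mcam and Notch3 fell, while the other 4 missed the threshold. Their log2 fold changes were 0.10 for Ndufa4l2, 0.20 for Cspg4, 0.22 for Cox4i2 and 0.26 for Des, and the median of the 6 was 0.15. Without DMSO replicate 1, 2 of the list rose. The part of these markers in the result for Pdgfrb was not tested. Macrophage markers summed to 11.4 to 15.4 and 12.8 to 17.8 RPKM with overlapping groups. Of 5 tested Cd14 rose, beside 20.1% higher of all tested genes. In this list 2 rose without GSK101 replicate 3, with the replicate block or with limma-voom. Cd68 was at 6.01 ± 1.43 and 5.83 ± 1.60 RPKM (SD, n = 3). Beside 20.1% higher and 11.9% lower of all tested genes, 4 of 10 tested fibroblast and disc cell markers rose and 2 fell. Prg4 and Lum were among the rises, and Scx and Thy1 were the falls. The rises became 1 without DMSO replicate 3 or GSK101 replicate 2. They became 2 with no filter, median-ratio scaling or no mean-variance trend, and without DMSO replicate 2 or GSK101 replicate 1. The falls became 6 with the length trend removed and 1 with quantile normalization.

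By correlation over the 6 libraries on the log2 scale, the tested genes most like Pdgfa were AY172581.19 (Pearson r = 0.999), Irak4 (r = 0.996) and Alas1 (r = 0.996). Those most like Pdgfrb were P4ha2 (r = 0.999), Pald1 (r = 0.997) and Maged1 (r = 0.996). With 2 groups of 3 libraries many genes reach such values: 57 tested genes had an r of at least 0.98 with Pdgfa and 35 with Pdgfrb. The correlations describe shared group differences and shared library scaling.

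**Figure D5:**
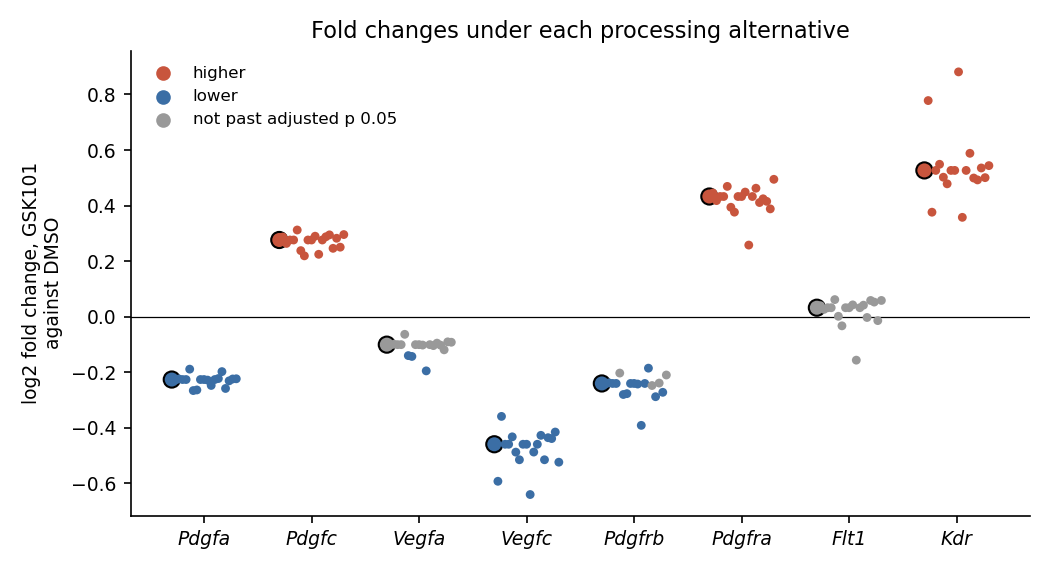
Log2 fold changes of the 8 tested members under the main fit (large outlined points) and each processing alternative (small points, Kdr with 17 and the others with 18); red is higher, blue lower, grey not past the threshold. Pdgfra, Kdr, Pdgfc, Pdgfa and Vegfc keep 1 colour throughout, and Pdgfrb and Vegfa have points of 2 colours.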

How the data were processed

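The authors deposited 1 table of RPKM values for 6 libraries, with gene coordinates on Rnor_6.0. Per the labels' protocols, stranded libraries of polyadenylated RNA carried molecular identifiers of 8 bases. Per the submitters' processing notes, the tools were edgeR 3.12.1, featureCounts, Subread 1.5.1, STAR 2.5.3a and Trimmomatic 0.36, with no roles named. How identifiers and strand entered the counting is unknown here. Products of RPKM and length were whole multiples of 1 read (within 0.01 of a read) for 100% of values, and the depths come from this. An even number was found for 71.3% to 74.7% of genes at 1 to 10 reads, so mates may have been counted separately.

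The test was limma 3.58.1 (R 4.3.3) with a mean-variance trend and a group term alone, applied to log2(RPKM + 0.5) for genes with at least 0.5 RPKM in at least 3 libraries. It was also run on simulated counts in which few genes were changed, equally up and down. That run cannot show how the test behaves with as many calls as here. Ratios and genes under the filter were tested by exact permutation (scipy 1.17.1). The members and the gene lists (142 entries, 134 in the table, 108 tested) were chosen with earlier results of these data known. From each list the text names at most 4 called genes, by smallest adjusted p, or 2 with the highest mean where fewer than 2 passed, all other family genes, and a few more, such as defining markers and neighbouring genes, chosen after their values were seen. For the most abundant ligand and receptor it names the 3 tested genes of highest correlation. Replicates differed beyond counting noise (chi-square per gene 2.36 to 7.84, on reads divided by 2 to allow for mates counted separately). No genome sequence was used beyond RefSeq promoter windows.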

Additional observations from a re-analysis of the deposited data

How the results depend on the processing

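Across 18 alternatives (other pseudocounts, filters, scalings and variance models, limma-voom, a gene length correction, a replicate block and leaving out each library), 2 to 3 members were higher and 2 to 4 lower. Pdgfa, Pdgfc, Pdgfra and Vegfc kept their call in all 18, and Kdr in the 17 that tested it, since a filter of 1 RPKM leaves it out. The log2 fold change of Flt1, never past the threshold, changed sign to -0.033 with quantile normalization and -0.16 once the length trend was removed, and ran from -0.0141 to 0.0584 when single libraries were left out (-0.0029 without DMSO replicate 2 and -0.0141 without GSK101 replicate 2); the cause was not tested. Deviations of same-numbered libraries from their group means were little correlated (r = 0.0544, -0.0631 and 0.0519). With so few libraries this cannot settle whether same-numbered samples were paired, and the labels do not say. With the replicate block 3 members were higher and 3 lower, and 2508 of all tested genes were higher and 1437 lower. The 4 ratios kept their direction in the 8 alternatives run for them (0.1 RPKM added to both genes, the replicate block and leaving out each library), with log2 differences of 0.67 to 0.73 for Pdgfra to Pdgfrb, 0.49 to 0.54 for Pdgfc to Pdgfa, 0.48 to 0.64 for Vegfa to Vegfc and -0.95 to -0.74 for Flt1 to Kdr. For Pdgfra to Pdgfrb and Pdgfc to Pdgfa that direction was fixed by the values of the single genes. Depth limits Pdgfb, with at most 16 reads in a library, and intervals cover these samples only.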
